A study of Mus musculus with 16 samples.

Results

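The clustered protocadherins are 3 neighbouring families of cell-surface adhesion genes on mouse chromosome 18. They were taken as every gene whose symbol, looked up from the gene ID of the count table, starts with Pcdha, Pcdhb or Pcdhg. The rule found 58 genes of the 27179 gene IDs in the table: 14 in the alpha cluster, 22 in the beta cluster and 22 in the gamma cluster. RNA was sequenced from the hearts of 16 mouse embryos at embryonic day 10.5, 4 separate embryos for each of 4 genotypes. Wild-type embryos (Ing4+/+ Ing5+/+) carried all alleles of Ing4 and Ing5, and Ing4+/- Ing5+/+ embryos had lost 1 Ing4 allele. Ing4+/+ Ing5-/- embryos had lost both Ing5 alleles, and Ing4+/- Ing5-/- embryos, the compound mutants, had lost 3 of the 4 alleles. They are called Ing4+/-, Ing5-/- and compound mutant below. Ing4 and Ing5 encode related subunits of histone acetyltransferase complexes, which read methylation of histone H3, and the title of the series names acetylation of lysine 14 of that histone and the epicardium, the outer cell layer of the heart.

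Clustered protocadherins are best known from the nervous system. Neurons choose a few members each from alternative promoters, and the proteins bind copies of themselves on other cells, so that a neuron can tell its own branches from those of its neighbours. In the alpha and gamma clusters each member has a variable first exon of its own, which encodes the whole extracellular part, and is spliced to 3 constant exons that all members of the cluster share. Beta genes have no constant exons. The last members of the alpha and gamma clusters, Pcdhac1, Pcdhac2, Pcdhgc3, Pcdhgc4 and Pcdhgc5, are the C-type members, which differ from the others in promoter control and are less often subject to random choice. CTCF and cohesin loop the promoters to distant enhancers, and Smchd1 with DNA methylation keeps unused promoters silent.

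Total counts ranged from 19753100 to 35664331 reads per library, and 15785 genes were tested. Ing5 was lower in compound mutant than in wild-type hearts by a log2 fold change of -0.68 ± 0.13 (SE; edgeR, Benjamini-Hochberg adjusted p = 0.0174), in the direction of the labels. In Ing5-/- hearts it stood at 23.4 against 33.5 CPM in wild-type (-0.51, adjusted p = 0.319, edgeR). Ing4 stood at 34.1 CPM in Ing4+/- against 39.5 CPM in wild-type hearts (-0.21, adjusted p = 0.955, edgeR), and neither of these last differences passed the test. Of the 7 litters, wild-type and Ing5-/- embryos had none in common, whereas compound mutants shared litters 4 and 6 with wild-type and 4, 6 and 7 with Ing4+/- embryos. The libraries farthest out on principal components 1 to 3 were Ing4+/- heart 4, Ing5-/- heart 1 and compound mutant heart 2 for all genes tested, and Ing4+/- heart 4, wild-type heart 2 and compound mutant heart 2 for the 500 most variable genes. Whole hearts were used, so fewer cells of a type and less RNA per cell cannot be told apart.

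The shared exons decide what a count of an alpha or gamma member can mean. In GRCm38, with gene positions from RefSeq and exons from GENCODE M21, the alpha members lie between positions 36930285 and 37188897 of chromosome 18, and their constant exons are 59, 89 and 2712 bases long. The gamma members lie between 37661775 and 37841873, with constant exons of 59, 89 and 1971 bases. Constant exons made up 52.7 to 54.9% of the deposited length of an alpha gene and 41.7 to 47.3% of that of a gamma gene. The beta members, between 37264998 and 37521419, had none. A read in a constant exon belongs to every member of the cluster. The read-through gene Gm37013 bears on how such reads were handled. It runs from Pcdha4 to the end of the gamma cluster, in GENCODE M21 it shares 59 and 32 bases with the gamma constant exons 1 and 2, and it was listed with 0 reads in all 16 libraries. No reads of those shared bases were thus added to Gm37013, which bears on these gamma bases only. In alpha, Pcdha1 and Pcdha8 had 0 reads over all libraries beside 2220 for Pcdhac2. Reads of the alpha constant exons were thus not added to Pcdha1 or Pcdha8. The count of a member is taken here as that of its own variable exon, which was not tested further. Values of 1 gene across hearts are in CPM, counts scaled to library size, and levels between genes are in CPM per kilobase of this own exon length (CPM per kb). Members also resemble each other in sequence, so reads that fit several members may have been lost or split. How they were treated is not stated in the labels.

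The gamma cluster supplied most of the reads. All members together had 103531 reads over the 16 libraries, of which 96428 came from gamma, 4805 from beta and 2298 from alpha genes. All 22 gamma genes had reads in every heart and passed the filter on low counts. In the beta cluster 13 of 22 genes passed, and in the alpha cluster only Pcdhac2, 1 of 14, did. That left 36 members tested. Pcdha1, Pcdha4, Pcdha8 and Pcdhb1 had 0 of 424398849 reads, which allows a level of up to 0.00707 CPM over all libraries (3 counts; counting error only). For Pcdha4 this limit may not hold, if reads that overlap more than 1 gene were left uncounted. Gm37013, with a length of 2410 bases, starts 41 bases before Pcdha4. How many bases Pcdha4 shared with Gm37013 in the annotation used for counting was not tested.

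**Figure D1:**
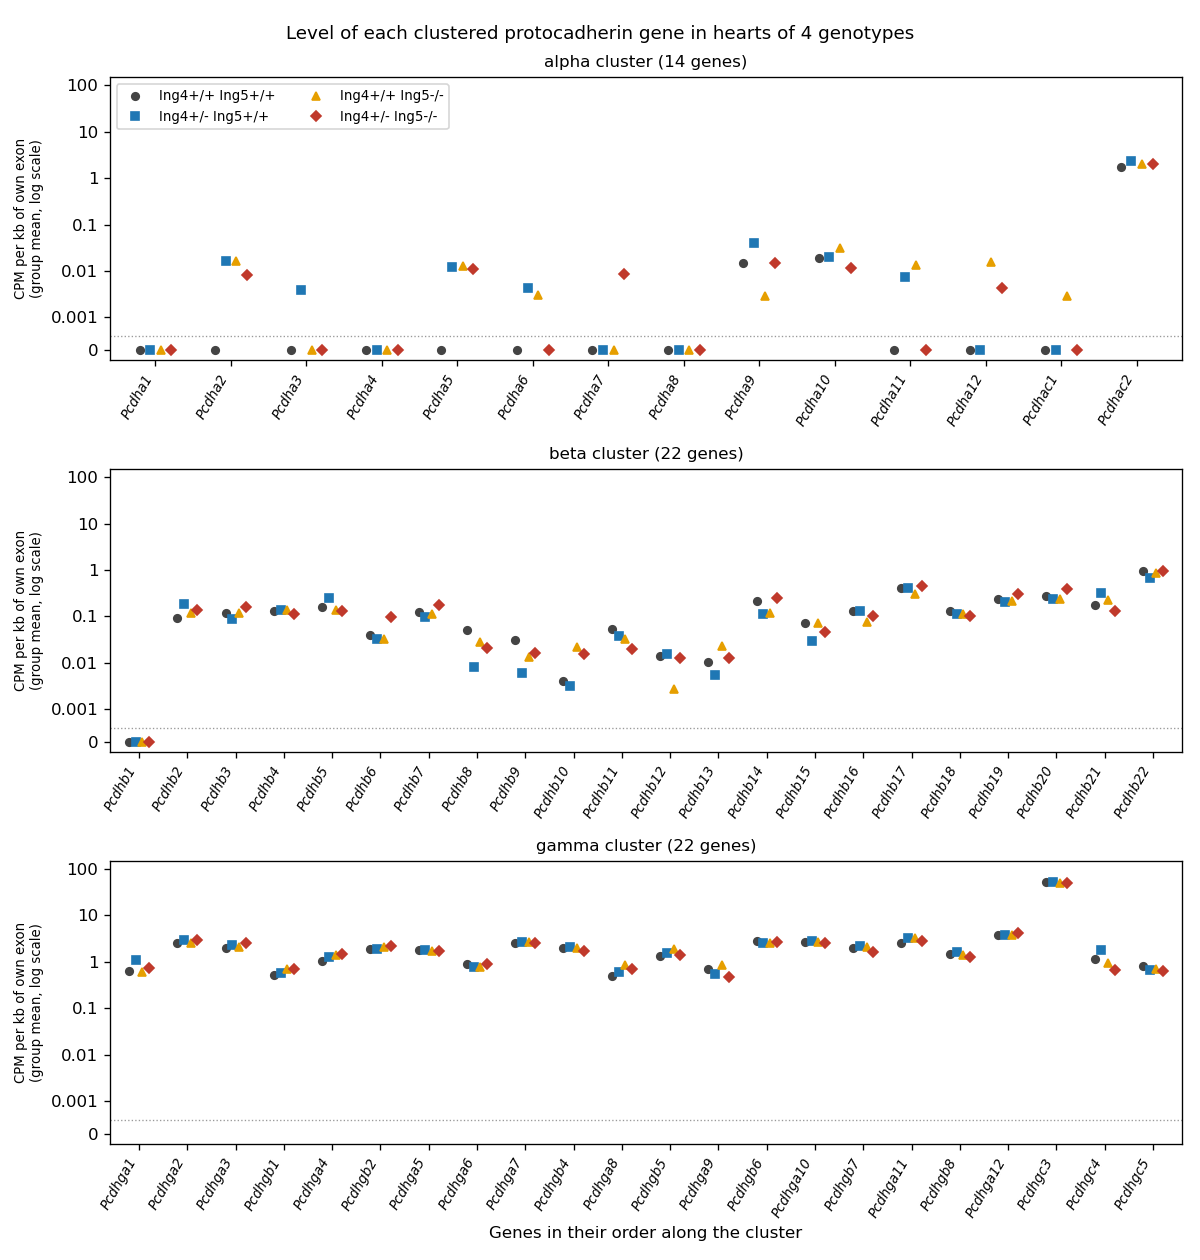
Level of each of the 58 members, in CPM per kb of own exon on a log axis, with genes in their order along each cluster. Each point is the mean of 4 hearts of a genotype, and points under the dotted line are means of 0. Pcdhgc3 (51.8 over all hearts) lies above every other member, Pcdhac2 (2.04) is the only alpha member near the gamma genes, and the 4 genotypes lie close together for most members.

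In the alpha cluster, reads came almost entirely from Pcdhac2, its last C-type member. It held 96.6% of all alpha reads, and between 91.9 and 100% in a single heart. Its level was 5.56, 3.07, 4.25 and 5.14 CPM in the wild-type hearts and 6.24, 6.58, 6.12 and 4.92 CPM in the Ing4+/- hearts. The Ing5-/- hearts had 4.29, 2.58, 7.37 and 6.77 CPM, and the compound mutants 6.98, 3.65, 5.68 and 4.51 CPM. The groups overlapped throughout, and the lowest and the highest heart of all were both Ing5-/-. The other 13 alpha genes had 78 reads in all, the most for Pcdha10 with 21 reads. Pcdhac1, the other C-type alpha member, had 1 read in 1 Ing5-/- heart. Between 7 and 13 of the 14 alpha genes had no read in a given heart, so which alternate alpha promoters were used could not be measured at this depth.

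Beta genes were read at low levels from many members. Pcdhb22, the last gene of the cluster, led with 0.865 CPM per kb and held 23.4% of the beta reads. It was followed by Pcdhb17 (0.392), Pcdhb20 (0.286) and Pcdhb19 (0.242), all from the end of the cluster nearest to gamma. The median of the 13 tested beta genes was 0.170 CPM per kb. Across these 13 genes the rank correlation between position in the cluster and level was 0.58, and across the 19 gamma A and gamma B genes it was 0.33. Both are descriptions of genes that share libraries, and the beta genes are only those that passed the filter. Pcdhb22 stood at 2.92, 4.42, 1.44 and 3.11 CPM in the wild-type hearts and at 2.29, 1.99, 2.37 and 1.57 CPM in the Ing4+/- hearts. The Ing5-/- hearts had 2.63, 3.51, 2.34 and 2.01 CPM of it, and the compound mutants 2.30, 3.07, 2.04 and 4.42 CPM. Wild-type hearts alone spanned the whole range of this gene. The 9 beta genes that did not pass the filter had 266 reads together, the most for Pcdhb15 with 64.

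Pcdhgc3 was the most abundant member of all. It reached 51.8 CPM per kb and took 58.4% of the gamma reads, 53.5 to 60.8% in a single heart. Wild-type hearts had 135, 136, 136 and 143 CPM, Ing4+/- hearts 143, 132, 135 and 128 CPM, Ing5-/- hearts 120, 140, 139 and 124 CPM and compound mutants 121, 120, 135 and 140 CPM. The coefficient of variation within groups was 6.09%, the lowest of the tested members, and the gene was also the most deeply read, with 56272 reads. Next came Pcdhga12, with 3.91 CPM per kb, then Pcdhga11 with 2.98 and Pcdhga2 with 2.77. The gamma A genes had a median of 2.00 CPM per kb (0.650 to 3.91, 12 genes) and the gamma B genes one of 1.96 (0.626 to 2.63, 7 genes), so these sequence types overlapped. The other C-type members were lower: Pcdhgc4 stood at 1.12 and Pcdhgc5 at 0.703 CPM per kb. Ranks within the clusters were the same when the full deposited gene length was used. The C-type members thus ranged from Pcdhac1, with 1 read, to Pcdhgc3, the highest of all 58 genes.

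Of the other named gamma members, Pcdhga12, Pcdhga2, Pcdhgc5 and Pcdhga8 overlapped between all genotypes. Pcdhga12 ranged from 9.49 to 13.4 CPM in wild-type hearts and from 9.15 to 12.7 CPM in Ing4+/- hearts, beside 10.9 to 12.6 CPM in Ing5-/- hearts and 10.6 to 14.1 CPM in compound mutants. Pcdhga2, at the start of the cluster, ranged from 5.27 to 6.72, 5.92 to 8.42, 3.70 to 8.48 and 6.13 to 7.76 CPM in the same order. Ing5-/- heart 4 had the lowest Pcdhga2 of all hearts. Pcdhgc5, the last gene of the cluster, ranged from 1.48 to 3.11, 1.13 to 2.04, 1.24 to 2.44 and 1.29 to 2.15 CPM. Pcdhga8, a gamma A gene of low level, ranged from 0.796 to 1.78, 1.05 to 2.33, 1.63 to 3.51 and 1.19 to 2.32 CPM. The highest Pcdhga8 heart was Ing5-/- and the lowest wild-type.

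The measured spread between hearts of a genotype lay above the value for counting error alone in every tested member. The excess was not tested, and it was small for the lowest beta genes, with 12 degrees of freedom per gene. The chi-square per degree of freedom within groups, which is about 1 where counting error alone acts, had a median of 4.44 over the gamma genes (2.90 for Pcdhga10 to 13.7 for Pcdhgc3) and of 2.92 over the beta genes (1.75 for Pcdhb5 to 7.54 for Pcdhb22). It was 12.1 for Pcdhac2. The dispersion that edgeR estimates for a gene was divided by the trend for genes of similar abundance. That estimate is already drawn towards the trend, so the ratio is not a gene's own measured spread. The median ratio was 0.677 in gamma and 0.803 in beta genes, beside 0.733 over all genes tested. By this measure the gamma genes did not vary more than others. For Pcdhac2 the ratio was 1.49.

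Summed over the members of a cluster, the hearts of every pair of genotypes overlapped. The alpha sum was 4.59 ± 1.20 CPM in wild-type hearts and 6.22 ± 0.875 CPM in Ing4+/- hearts (SD, n = 4 each, here and below). Ing5-/- hearts had an alpha sum of 5.49 ± 2.27 CPM and compound mutants one of 5.35 ± 1.46 CPM. The beta sum was 11.9 ± 2.24, 10.6 ± 1.10, 10.3 ± 1.56 and 12.6 ± 2.39 CPM from wild-type over Ing4+/- and Ing5-/- to compound mutant hearts. For gamma the sums were 229 ± 6.33, 234 ± 9.93, 227 ± 16 and 222 ± 17.5 CPM, and without Pcdhgc3 they were 91.6 ± 3.66, 99.0 ± 6.70, 95.9 ± 10.4 and 93.0 ± 7.56 CPM. In log2 terms the compound mutants differed from wild-type by 0.22 in alpha, 0.08 in beta and -0.05 in gamma. From Ing4+/- hearts they differed by -0.22, 0.24 and -0.07. No test was made of these sums.

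**Figure D2:**
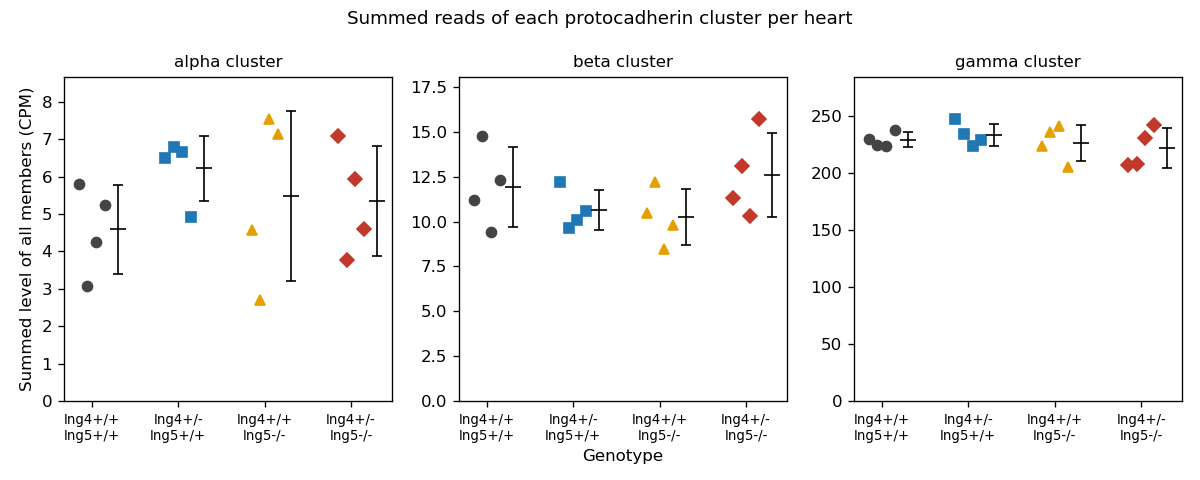
Summed level of all members of each cluster in CPM, 1 point per heart, with the mean and SD of each genotype beside the points (n = 4) and axes from 0. The gamma sums lie between 205 and 247 CPM in all 16 hearts, the beta sums between 8.48 and 15.7 and the alpha sums between 2.71 and 7.53, with the genotypes overlapping.

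Compound mutant hearts were first compared with wild-type hearts, the widest contrast in allele number. No tested member passed the test in either direction: 0 of 36, beside 0.843% of all genes tested (133 of 15785; edgeR quasi-likelihood test with Benjamini-Hochberg adjustment). DESeq2 and limma-voom also called 0 members, and 2 members, Pcdhgc4 and Pcdhga4, had an unadjusted p under 0.05 (5.56%, beside 11.7% of all genes). The median log2 fold change was 0.03 over the members and 0.00 over all genes, with 18 members above and 18 below 0. In 2 of the 36 members, Pcdhgc4 and Pcdhga9, the groups did not overlap, beside 10.2% of all genes. Pcdhga9, a gamma A gene, had 2.04, 1.76, 1.71 and 1.93 CPM in wild-type and 1.35, 1.45, 1.26 and 0.918 CPM in compound mutant hearts. Its log2 fold change was -0.57 ± 0.32 (SE; adjusted p = 0.518, edgeR), and the Ing4+/- hearts, with 1.77, 1.92, 1.25 and 0.653 CPM, overlapped both groups. Pcdhga4 had 2.04, 2.97, 3.26 and 1.93 CPM in wild-type and 3.42, 2.82, 3.64 and 4.71 CPM in compound mutant hearts, a log2 fold change of 0.51 ± 0.23 (adjusted p = 0.402, edgeR). Here the compound mutants were mostly higher, but the lowest of them lay inside the wild-type range.

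Precision differed widely between members in this comparison. The abundant Pcdhgc3 had a log2 fold change of -0.09, and the standard errors had a median of 0.21 over gamma and 0.48 over beta genes. Of the beta genes, Pcdhb2 had the largest positive value, 0.54, from 5 to 18 reads per heart in the groups compared. The most negative was that of Pcdhb21, -0.42, which had 3 reads in compound mutant heart 2. The other named beta genes, Pcdhb16, Pcdhb17, Pcdhb19 and Pcdhb20, had log2 fold changes from -0.35 to 0.49, none of which passed the test.

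Pcdhgc4 was the member that differed between compound mutant and Ing4+/- hearts. It is a C-type gamma gene (gene ID 93707, chromosome 18: 37815079 to 37841873, GRCm38), which in mice is known for its part in the survival of neurons. Ing4+/- hearts had 4.47, 3.51, 5.12 and 7.58 CPM (97 to 174 reads). Compound mutant hearts had 2.00, 1.49, 2.12 and 2.09 CPM (36 to 59 reads). All 4 compound mutants lay below all 4 Ing4+/- hearts. The log2 fold change was -1.42 ± 0.26 (SE), with an adjusted p of 0.0106 (edgeR with Benjamini-Hochberg adjustment). It was the only call among the members, 1 of 36, beside 1.10% of all genes tested (173 of 15785). At that background, 1 call is a result about Pcdhgc4 and not about the clusters as a whole. DESeq2 (adjusted p = 4.18e-05) and limma-voom (adjusted p = 0.0259) also called Pcdhgc4 and no other member.

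**Figure D3:**
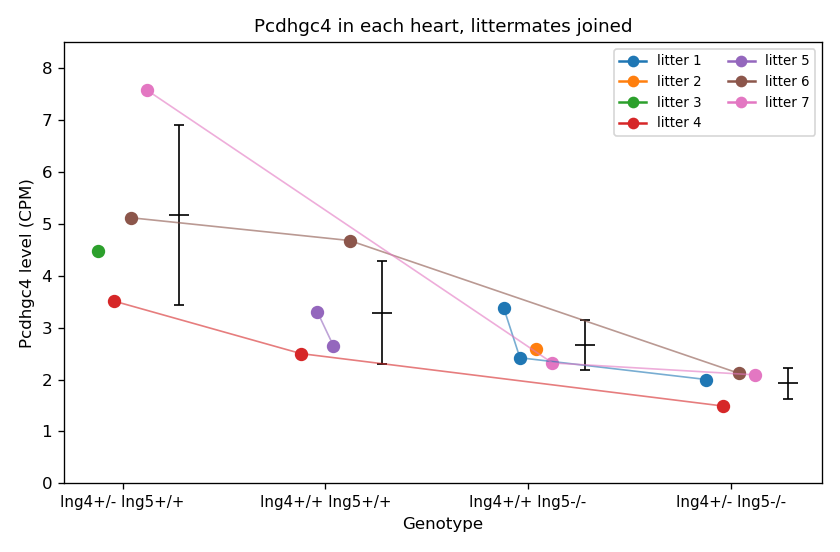
Pcdhgc4 level in CPM in each of the 16 hearts, by genotype, with embryos of a litter in the same colour and joined by lines, and with the mean and SD of each genotype (n = 4). All compound mutant hearts lie between 1.49 and 2.12 CPM and all Ing4+/- hearts between 3.51 and 7.58 CPM. The compound mutant is therefore the lower in each of the 3 litters with both genotypes.

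The means of wild-type and Ing5-/- hearts lay between those of these groups. Wild-type hearts had 2.50, 3.31, 2.65 and 4.68 CPM of Pcdhgc4, and Ing5-/- hearts 3.38, 2.42, 2.58 and 2.32 CPM. Every compound mutant was below every wild-type and every Ing5-/- heart, but neither difference passed the test over all genes. Against wild-type the log2 fold change was -0.77 ± 0.26 (adjusted p = 0.226, edgeR), and against Ing5-/- it was -0.47 (adjusted p = 0.768, edgeR). Ing4+/- hearts differed from wild-type by 0.65 ± 0.25 (adjusted p = 0.955, edgeR), with overlapping values. The interaction of the 2 genotypes, which asks whether losing an Ing4 allele acted differently without Ing5, was -1.13 ± 0.36 (adjusted p = 0.819, edgeR). These comparisons share groups, so they are not separate evidence.

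All compound mutants lay below all Ing4+/- hearts, so the compound mutant had to be the lower in each litter with both. The values within litters describe the same hearts and are not further evidence. In litter 4 the compound mutant had 1.49 and its Ing4+/- littermate 3.51 CPM, in litter 6 they had 2.12 and 5.12 CPM, and in litter 7 they had 2.09 and 7.58 CPM. The log2 ratios were -1.23, -1.27 and -1.86. As a share of gamma reads, Pcdhgc4 made up 0.866 ± 0.107% in compound mutant and 2.23 ± 0.793% in Ing4+/- hearts, while the gamma sums of these groups overlapped. Its neighbours Pcdhgc3 and Pcdhgc5, which use the same constant exons, had log2 fold changes of -0.06 each in this comparison and did not pass the test. The highest Ing4+/- heart, heart 4, was also farthest out on principal component 1. Without it the log2 fold change was -1.18 (adjusted p = 0.0374, edgeR). Without the 3 libraries farthest out by the 500 most variable genes, a choice made after seeing the data, it was -1.08 and no longer passed (adjusted p = 0.149).

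Markers of other cell types were compared beside this result, in the comparison where 1.10% of all genes were called. At that share, 0 calls in a list of this size is not a result about the list. Summed neuron markers (20 genes, 11 tested, 10 of 20 under 1 CPM on average) reached 59.4 to 67.7 CPM in Ing4+/- and 55.1 to 67.2 CPM in compound mutant hearts, with 0 of 11 called. Of the 11 tested, 3 were positive, and the median log2 fold change was -0.06. Neural crest and glial markers summed to 133 to 153 and 122 to 143 CPM, most of it from Ets1 (104 CPM), with 0 of 7 called and a median log2 fold change of -0.13. Among them Ngfr, a neurotrophin receptor gene, stood at 4.56 ± 2.62 CPM in Ing4+/- and 2.00 ± 0.473 CPM in compound mutant hearts (-1.19 ± 0.39, adjusted p = 0.158, edgeR). In wild-type hearts Ngfr stood at 3.38 ± 0.333 CPM. Of 8 tested markers of pharyngeal and paraxial mesenchyme, 2 had a positive log2 fold change, and the median was -0.25. Barx1, a transcription factor gene, was lower in the compound mutants (1.51 ± 0.205 against 3.65 ± 0.959 CPM; log2 fold change -1.27 ± 0.23, adjusted p = 0.0106, edgeR). The Hox genes of this list, Hoxa3 (-2.13 ± 0.74, adjusted p = 0.188, edgeR) and Hoxb4 (-1.22 ± 0.43, adjusted p = 0.201, edgeR), had negative values that did not pass the test. Tbx1 (0.23) and Foxc2 (0.17) were positive, and Meox1 (-0.01) and Tcf15 (-0.04) lay near 0. Wild-type means were 1.96 CPM for Barx1, 0.271 for Hoxa3 and 1.01 for Hoxb4. Compound mutants had 1.51, 0.315 and 1.01 CPM of them, and Ing4+/- hearts 3.65, 1.38 and 2.35 CPM. In compound mutant against wild-type hearts 5 of the 8 markers were positive, with a median of 0.14 and 0 called. The sum of the list, 54.0 to 72.1 CPM in Ing4+/- and 60.3 to 70.8 CPM in compound mutant hearts, came mostly from Foxc2 (46.8 CPM). Hoxa3, Hoxb4, Foxc2, Tbx1, Meox1, Tcf15, Ngfr and Ets1 were chosen after their values were seen. Macrophage markers summed to 14.2 to 21.0 CPM in Ing4+/- and 40.7 to 62.9 CPM in compound mutant hearts, and 2 of 10, Laptm5 and Csf1r, were called higher. Epicardial markers summed to 438 to 651 and 420 to 528 CPM, with 2 of 10 positive and a median log2 fold change of -0.21. Krt19, a keratin gene, was called higher, against the direction of most of this list. Erythroid markers summed to 4518 to 18255 CPM in Ing4+/- and 7308 to 45954 CPM in compound mutant hearts, with 10 of 10 positive, a median log2 fold change of 1.05 and 0 called. Endothelial (median 0.23) and cushion mesenchyme markers (median -0.18) had 0 of 10 called each. Heart muscle markers stood at 32923 to 35179 CPM in Ing4+/- and 31855 to 37478 CPM in compound mutant hearts. Of these 14 markers, 5 were positive, with a median log2 fold change of -0.04 and 0 called. All 14 heart muscle markers passed the filter, and 0 markers of these lists were at 0 in all hearts. The part of these cell types in the Pcdhgc4 difference was not tested.

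The other members showed no call in the same comparison. Pcdhb21 came next by p, with 0.902, 0.470, 0.541 and 1.52 CPM in Ing4+/- and 0.339, 0.124, 0.446 and 0.501 CPM in compound mutant hearts, a log2 fold change of -1.27 ± 0.49 (adjusted p = 0.246, edgeR). Its groups overlapped by 1 heart each. Pcdhgb7, a gamma B gene chosen after its values were seen, was the other member without overlap, beside 10.1% of all genes: it had 5.45, 5.39, 4.75 and 5.66 CPM in Ing4+/- and 3.96, 3.15, 4.38 and 4.51 CPM in compound mutant hearts (-0.41 ± 0.18, adjusted p = 0.306, edgeR). In all, 4 of 36 members had an unadjusted p under 0.05 (11.1%, beside 14.1% of all genes). The median log2 fold change was -0.06 over the members, 0.18 over the beta and -0.06 over the gamma genes, and 15 members were above and 21 below 0.

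**Figure D4:**
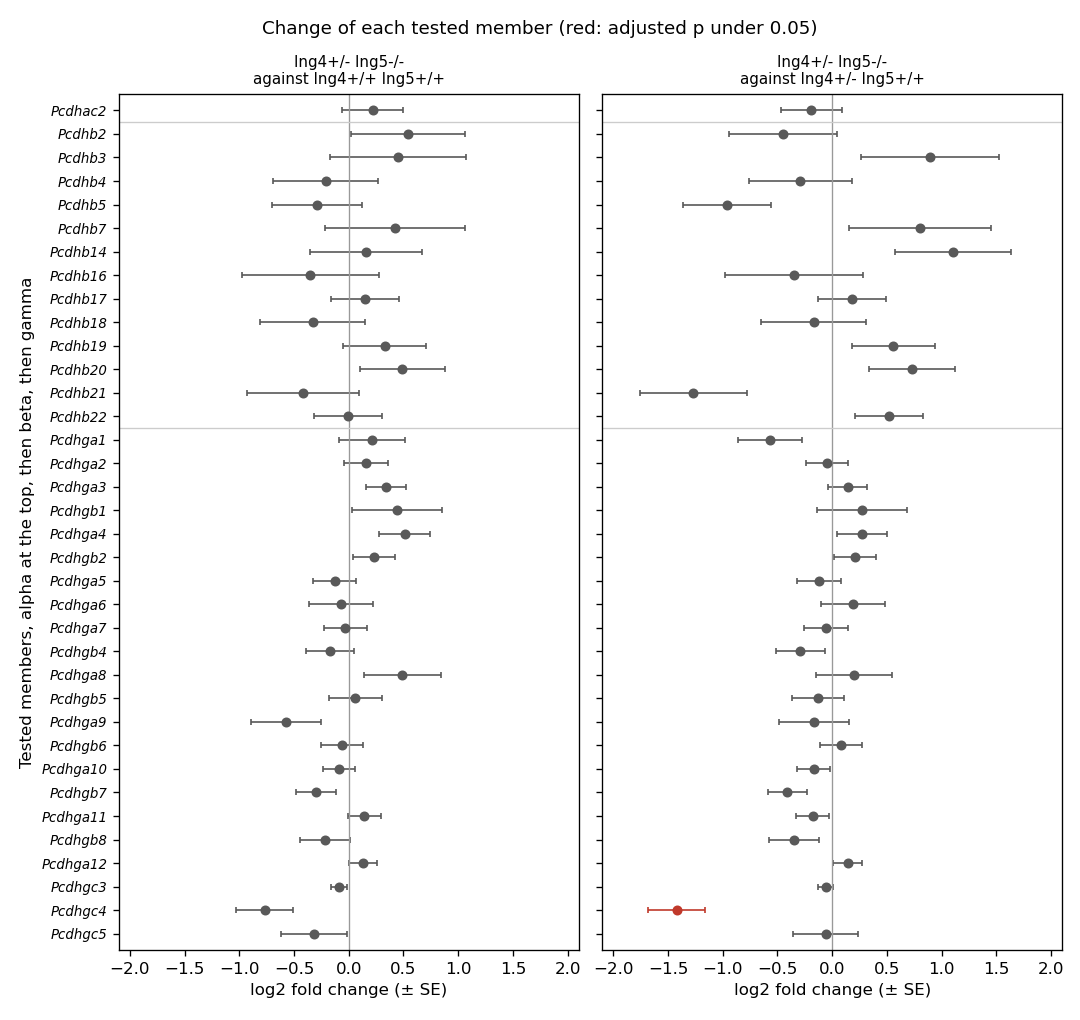
Log2 fold change with its standard error for the 36 tested members, compound mutant against wild-type hearts on the left and against Ing4+/- hearts on the right. Pcdhgc4 on the right (-1.42, red) is the only member with an adjusted p under 0.05, and error bars are widest for the beta genes in the middle block.

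Loss of Ing5 or of 1 Ing4 allele alone gave no call among the members. Ing5-/- against wild-type hearts called 0 of 36, beside 0% of all genes (edgeR; 0 with DESeq2 and limma-voom, and 3, or 8.33%, with an unadjusted p under 0.05, beside 9.77% of all genes). Pcdhga11, a gamma A gene, was without overlap there: wild-type hearts had 6.77, 6.52, 6.71 and 6.72 CPM and Ing5-/- hearts 9.62, 8.83, 8.40 and 7.49 CPM. Its log2 fold change was 0.36 ± 0.15 (adjusted p = 0.470, edgeR), while compound mutants, at 7.72, 6.31, 7.17 and 8.14 CPM, spanned the wild-type values. Pcdhb14, a beta gene named after its values were seen, was the other of 2 members without overlap, beside 4.74% of all genes. Ing4+/- against wild-type hearts called 0 of 36, beside 0% of all genes (0 with DESeq2 and limma-voom, and 3, or 8.33%, with an unadjusted p under 0.05, beside 4.74% of all genes). Only Pcdhb2 was without overlap, beside 3.78% of all genes, with 0.324, 0.173, 0.190 and 0.356 CPM in wild-type and 0.413, 0.615, 0.625 and 0.392 CPM in Ing4+/- hearts (0.99 ± 0.51, adjusted p = 0.955, edgeR).

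Removing an Ing4 allele from Ing5-/- hearts gave no call either. Compound mutant against Ing5-/- hearts called 0 of 36, beside 0.00634% of all genes (1 gene; 0 members with DESeq2 and limma-voom). The groups did not overlap in 3 members, Pcdhgc4, Pcdhga9 and Pcdhgb5 (the last named after its values were seen), beside 3.00% of all genes. Pcdhga9 had 2.67, 1.69, 3.05 and 1.61 CPM in Ing5-/- hearts, all above the compound mutants given before, with a log2 fold change of -0.84 ± 0.32 (adjusted p = 0.644, edgeR). It was the only member with an unadjusted p under 0.05 (2.78%, beside 6.74% of all genes). The interaction called 0 of 36, beside 0% of all genes (0 with DESeq2 and limma-voom, and 4, or 11.1%, with an unadjusted p under 0.05, beside 6.03% of all genes), and after Pcdhgc4 its lowest p belonged to Pcdhb14 (1.97 ± 0.75, adjusted p = 0.819, edgeR).

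Genes known to control the clusters, or to signal from their proteins, were counted in both compound mutant comparisons, where 0.843% and 1.10% of all genes were called. At those shares, 0 calls in lists of this size is not a result about the lists. Ctcf, whose protein binds the cluster promoters, stood at 133 CPM over all hearts with a log2 fold change of -0.06 ± 0.07 in compound mutant against wild-type hearts and -0.03 ± 0.07 against Ing4+/- hearts. None of 11 CTCF and cohesin genes was called in either comparison. Smchd1, which helps to silence the clusters, stood at 127 CPM (-0.16 ± 0.10 and -0.05 ± 0.10), and 0 of 14 silencing genes were called. A list of 13 genes held Ing4 and Ing5, their chromatin partners and other activators. The only gene of it called was Ing5 itself, lower in both comparisons, and the compound mutants had lost its alleles by design. Of 15 tested signalling partners of the proteins, such as the kinases Ptk2 and Fyn, 0 were called.

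The relatives and the neighbours of the clusters were counted in the same way. The non-clustered protocadherins, single genes outside the clusters, had 9 of 12 members tested. In both compound mutant comparisons 0 were called, with median log2 fold changes of -0.19 and -0.22. Per kilobase of full gene length, Pcdh7 had the highest level of those named, 15.4 CPM per kb, which lay below the 51.8 CPM per kb of own exon for Pcdhgc3 and above every other clustered member. On the same scale Pcdh18 stood at 3.85, Pcdh12, an endothelial protocadherin, at 1.66 and Pcdh19 at 0.0693 CPM per kb. Of 13 tested genes near the clusters, 1 was called against wild-type and 2 against Ing4+/- hearts, beside the same shares of all genes, 0.843% and 1.10%. Arap3, which encodes a signalling protein of endothelial cells, was higher in compound mutants (0.28 ± 0.06 against wild-type, adjusted p = 0.0471, and 0.28 ± 0.06 against Ing4+/-, adjusted p = 0.0408, edgeR). Tmco6 was higher against Ing4+/- hearts alone by the test (0.49 ± 0.09, adjusted p = 0.0143), beside 0.39 ± 0.09 against wild-type (adjusted p = 0.0635). None of 7 tested classical cadherins was called.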

How the data were processed

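RNA of 16 hearts was sequenced from stranded libraries, per the labels' protocols. The deposited values are raw counts of reads per gene, made by the authors with featureCounts on mm10, per the submitters' processing notes. Aligner, annotation, strand and multi-mapping settings were not stated there. The deposited gene length (other) gave the own exon length after subtracting constant exons, taken as bases exonic in at least 10 genes of a cluster. Symbols came from RefSeq for 25275 of 27179 IDs (93.0%). The 58 members and all gene lists were chosen with earlier results of these data known.

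Counts were fitted in R 4.3.3 with edgeR 4.0.16 (quasi-likelihood, 4 group means, TMM, filterByExpr) on all libraries, with calls at adjusted p under 0.05 (Benjamini-Hochberg over 15785 genes). CPM used TMM-scaled totals, and the standard error was the log2 fold change over the square root of F. Alternatives used DESeq2 1.42.0, limma 3.58.1 (voom), other filters, litter or replicate blocks and left-out libraries, and the code was tested on simulated data. Named members were those called, the C-type members, the 4 highest per cluster and the 2 largest rises and falls per cluster in compound mutant against wild-type hearts. Of context lists, called genes were named, with Ctcf, Smchd1 and 4 protocadherins. Members named outside this rule were chosen after their values were seen. No sequence is printed.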

Additional observations from a re-analysis of the deposited data

Results flagged for a closer look

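In 5 of 80 groups of 4 hearts examined (each of the 17 tested named members and each of the 3 cluster sums, in each genotype), a single heart stood apart from the other hearts by Dixon's test, and chance flags about 1 in 20 groups. Pcdhgc3 was 143 CPM in wild-type heart 4, against 135 to 136 in the other wild-type hearts. Pcdhga2 was 5.27 CPM in wild-type heart 3, against 6.63 to 6.72. Pcdhga4 was 4.01 CPM in Ing4+/- heart 2, against 2.61 to 2.82, and Pcdhga8 was 3.51 CPM in Ing5-/- heart 1, against 1.63 to 1.94. The alpha cluster sum was 4.92 CPM in Ing4+/- heart 4, against 6.50 to 6.80 in the other Ing4+/- hearts. Ing4+/- heart 4 and Ing5-/- heart 1 were also among the hearts farthest out on the principal components of all genes. Pcdhgc4 had no such heart in any genotype.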

How the results depend on the processing

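The count of members called stayed at 0 in 5 of the 6 comparisons under every alternative run, and at 1 in compound mutant against Ing4+/- hearts in all but 1. That exception left out the 3 libraries farthest out by the 500 most variable genes, where it was 0 and Pcdhgc4 stood at -1.08. Leaving out each of the 16 libraries in turn gave 1 to 1 members there and 0 to 0 elsewhere. Pcdhgc4 then ranged from -1.57 to -1.18, with adjusted p from 0.00489 to 0.0498, the highest without compound mutant heart 2. Its value with litter as a block was -1.53 (adjusted p = 0.0256), and with the replicate block -1.39 (0.0143). Replicate numbers were not taken as pairs, since residuals correlated over 0.1 in 5 of 24 same-number pairs. The block changed no call among the members. The interaction was not run with only the groups compared. For the 17 tested members named in compound mutant against wild-type hearts, 455 alternative values gave no call (lowest adjusted p 0.121), and the sign changed in 18 of them. Leaving out hearts moved the log2 ratios of cluster sums from 0.06 to 0.36 in alpha, from -0.05 to 0.20 in beta and from -0.09 to -0.01 in gamma against wild-type. Against Ing4+/- they moved from -0.38 to -0.08, from 0.12 to 0.33 and from -0.12 to -0.04. Depth limits the members that did not pass the filter on low counts, which were not tested.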
